A study of Mus musculus with 24 samples.

Results

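Matrix metalloproteinases are zinc proteases that cut collagens, laminins, fibronectin and other proteins outside the cell, and tissue inhibitors of metalloproteinases (Timp proteins) bind their active site and block them. The set described here holds 7 metalloproteinase genes (Mmp2, Mmp3, Mmp7, Mmp9, Mmp11, Mmp14 and Mmp15) and 3 inhibitor genes (Timp1, Timp2 and Timp3), chosen by gene symbol from the 54532 genes in the count table. All 10 were present, each once, and all 10 passed the limit on low expression used for testing. Without the RC/- libraries, in which several of them were highest, all 10 would also have passed it.

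RNA was sequenced from whole kidneys of 24 C57BL/6 mice that were 18 days old, 1 library from each. Every mouse carried 1 Pkd1 allele with the RC missense mutation, which leaves reduced function, and a floxed Pkd1 allele on the other chromosome. The 3 RC/+ mice (Pkd1 RC/F, no Cre) were labelled control. The 5 RC/- mice (Ksp-Cre with Pkd1 RC/F), in which the floxed allele is recombined in kidney tubules, were labelled cystic. In the edited lines the binding motif for the microRNA miR-17 was deleted from the 3′ UTR of the RC allele: line D18 came from founder 3, with 3 RC/+ D18 and 5 RC/- D18 mice, and line D53 from founder 2, with 3 RC/+ D53 and 5 RC/- D53 mice. Ksp-Cre was present in all cystic groups and in no control group, so the transgene and the cystic genotype cannot be told apart. Each edited line descends from 1 founder, so founder and deletion cannot be told apart within a line.

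Most metalloproteinases are secreted as inactive proenzymes, and Mmp14 and Mmp15 are held in the cell membrane. Mmp14 activates the Mmp2 proenzyme at the cell surface in a complex with Timp2, so Timp2 serves there as a bridge as well as an inhibitor. In the kidney these enzymes are known for turning over the basement membrane around tubules and the interstitial matrix, and Timp1 is a long-known marker of scarring and inflammation. A read count measures the mRNA in the tissue and not the active protease.

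Regulatory sequence is shown first because the study edits a microRNA site and because 2 of the genes with large differences, Mmp3 and Mmp7, share motifs near their starts. The mature sequence of miR-17-5p, as RefSeq gives it for GRCm38.p6, has its seed (bases 2 to 8) in capitals below, followed by the site in the Timp2 3′ UTR that matches this seed, also in capitals. Among the 10 genes' 3′ UTRs, which span 101 bases in Timp1 to 3604 bases in Timp3, only that of Timp2 held the seed match GCACTTT, once, at base 1857 of 2630. Of 20999 3′ UTRs of all genes, 10.87% held it.
miR-17-5p: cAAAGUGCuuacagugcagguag
Timp2 3′ UTR: attagactttGCACTTTtaaaaaaaaa

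A RefSeq promoter window (GRCm38.p6, reaching from upstream of the start to just past it) was matched for 8 of the 10 genes, all but Mmp2 and Mmp9. The AP-1 motif TGANTCA, searched on both strands, occurred in 7.808% of 32851 promoter windows and in those of 2 of these genes, Mmp3 and Mmp7. Windows around both matches (on the plus strand, chr9:7445766-7445792 and chr9:7692017-7692043, which are 46 to 40 and 63 to 57 bases before the starts) are printed with the motif in capitals. The letters TATAAA, which are shared by 13.62% of promoter windows, were found in the same 2 genes only, and their matches closest to the start are printed as well (chr9:7445805-7445830 and chr9:7692054-7692079). These lie at unlike distances, 7 to 2 bases before the start in Mmp3 and 26 to 21 bases before it in Mmp7. The Ets motif AGGAAG lay in 35.35% of all windows and in those of Mmp3, Mmp7, Mmp14, Timp1 and Timp3. These matches describe letters in a window and not occupied sites.
Mmp3 AP-1: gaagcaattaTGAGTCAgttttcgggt
Mmp7 AP-1: agtgtgcaaaTGAGTCAcctatttcca
Mmp3 TATA: acaaccactcTATAAAagttgggctt
Mmp7 TATA: tgagaagccaTATAAAtttctccagc

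Total counts ranged from 20379982 to 30837488 per library. Values below are CPM, a gene's count per 1000000 counts of its library, with group means ± SD. All 8 kidney markers, among them Lrp2, Umod and Nphs1, were detected. Libraries 20 to 22 of RC/- D18 and all 5 of RC/- D53 (23 to 27) stood apart: 7 skeletal muscle genes summed to between 154 and 203 CPM in them and to between 5.68 and 10.3 CPM in every other library. For the 10 genes, calls that changed without libraries 20 to 22 are given with and without them. No library of RC/- D53 lacked these counts, so for that group only a covariate shared with RC/- D18 could be fitted.

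In cystic RC/- kidneys compared with RC/+ kidneys, 7 of the 10 genes were called as higher and 1 as lower. Timp1 rose most, 15.5-fold, followed by Mmp7 and Mmp3, the 2 least abundant genes, and by Mmp14 and Timp2, while Mmp9 fell and Mmp2 and Timp3 did not pass the test. Genes were tested with limma on log2 CPM over all 24 libraries, and a call required a p under 0.05 after Benjamini-Hochberg adjustment over the 22570 genes tested. Of all tested genes 37.6% were called in this comparison, 25.5% as higher and 12.2% as lower, against 8 of the 10 genes. The median log2 fold change of the 10 genes was 0.85, and that of all tested genes 0.14. For 9 of the 10 genes the RC/- and RC/+ libraries did not overlap, which was so for 37.6% of tested genes. In whole-kidney libraries, fewer cells of a type and less RNA per cell cannot be told apart.

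With the motif deleted in line D18, all 10 genes differed from RC/-, 8 lower and 2 (Mmp9 and Timp3) higher. Of all tested genes 41.2% were called here, 26.9% lower and 14.3% higher. The median over the 10 genes was -0.88, beside -0.10 for all genes, and the libraries of RC/- D18 and RC/- did not overlap for 5 of the 10 genes, as for 27.8% of all tested genes. In line D53, 7 of the 10 genes differed from RC/-, 6 lower and Mmp9 higher, where 30.2% of all genes were called, 18.9% lower and 11.3% higher. The median was -0.64, beside -0.08 for all genes, and 5 of the 10 genes had no overlap, as 18.8% of all genes did. For Mmp7 this rested on library totals, as the nearest libraries of the 2 groups had 4 reads each. These comparisons share their RC/- libraries with the comparison against RC/+. Under TMM factors the calls over all genes were split more evenly, 3862 higher and 3886 lower in RC/- against RC/+ (5753 and 2744 with library totals), 4416 and 4435 in D18 (3238 and 6067) and 3301 and 3021 in D53 (2543 and 4262), while the 10 genes kept their directions and calls in all 3 comparisons.

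Without libraries 20 to 22 (chosen after seeing the data), 6 of the 10 genes remained called in RC/- D18 against RC/-: Mmp3, Mmp7, Mmp14, Mmp15, Timp1 and Timp2. Of all genes 27.1% were then called. A covariate for libraries 20 to 27 left the same 6 genes, beside 27.5% of all genes. In RC/- D53 against RC/-, that covariate left 2 of the 7 genes, Mmp3 and Timp1, and lowered the share of all genes called from 30.2% to 7.96%.

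**Figure D1:**
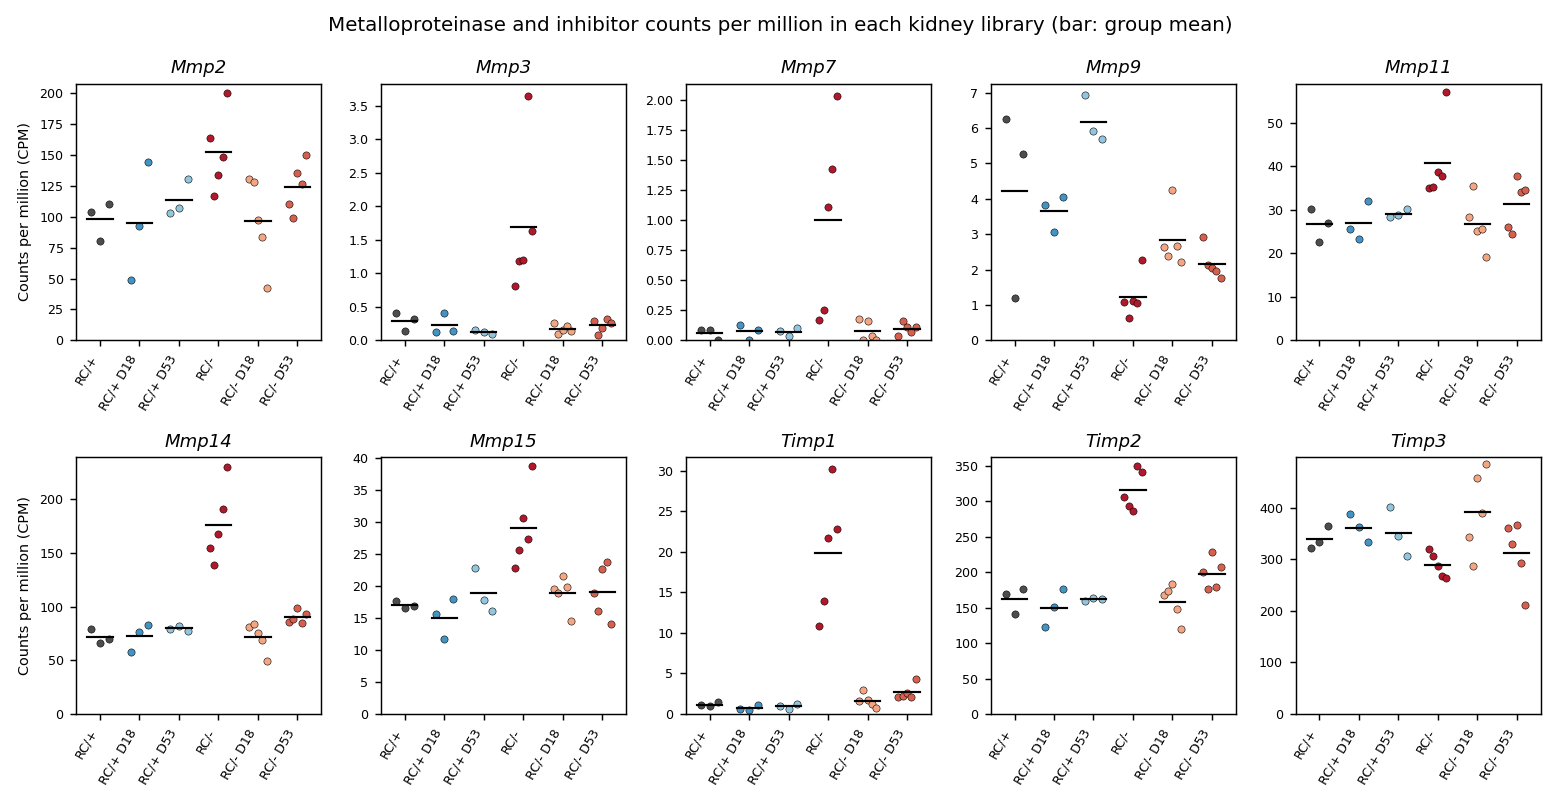
Levels in CPM of each of the 10 genes (vertical axes, linear from 0) in each kidney library (points), by group (horizontal axes), with the group mean as a bar. The RC/- libraries lie above those of every other group for Timp1, Timp2, Mmp3 and Mmp14, while their Mmp9 mean of 1.22 CPM is the lowest of the 6 groups.

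Mmp3 and Mmp7 are secreted enzymes with broad substrate ranges, which include proteoglycans, laminin and other proenzymes; Mmp7 is made mainly by epithelial cells. They lie on chromosome 9 of GRCm38 at 7445822-7455975 (Mmp3) and 7692090-7699585 (Mmp7), both on the plus strand. Mmp3 read 0.812, 1.18, 1.19, 3.65 and 1.64 CPM in the 5 RC/- kidneys and 0.408, 0.133 and 0.321 CPM in the 3 RC/+ kidneys. Every RC/- library was above every RC/+ library, and 1 of them, replicate 16, was above the rest. The log2 fold change was 2.17 ± 0.41 (SE; limma adjusted p = 0.000179). Mmp3 read 0.263, 0.0958, 0.157, 0.217 and 0.142 CPM in the RC/- D18 kidneys and 0.292, 0.0814, 0.183, 0.311 and 0.253 CPM in those of RC/- D53, within or below the RC/+ range and below every RC/- library. Against RC/- the log2 fold changes were -2.65 ± 0.36 in D18 (adjusted p = 2.05e-06) and -2.42 ± 0.36 in D53 (adjusted p = 1.36e-05). Mmp3 counts were small, with at most 10 reads per library outside RC/-.

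Mmp7 had 4, 6, 28, 34 and 46 reads in the RC/- libraries and 2, 2 and 0 in the RC/+ libraries, or 0.171, 0.253, 1.11, 1.43 and 2.04 CPM against 0.0817, 0.0885 and 0 CPM. Replicates 15 to 17 of RC/- held most of the reads, and replicates 13 and 14 lay just above the RC/+ range. Its log2 fold change was 2.61 ± 0.58 (adjusted p = 0.00082), a value that depends on the prior count at such low counts and came to 3.91 with edgeR's quasi-likelihood test. RC/- D18 libraries had 4, 0, 4, 1 and 0 reads and overlapped RC/- at its lowest library, and RC/- D53 libraries had 1, 4, 3, 2 and 3 reads and did not. The highest library of each edited group and the lowest RC/- library all had 4 reads. They read 0.175 (D18), 0.163 (D53) and 0.171 CPM (RC/-), so overlap or its absence rested on library totals alone. The log2 fold changes against RC/- were -2.55 ± 0.50 in D18 (adjusted p = 0.000207) and -2.22 ± 0.50 in D53 (adjusted p = 0.00138, and 0.168 with the covariate for libraries 20 to 27). Of its 1068 exon bases, 123 are shared with AV064505 on the opposite strand, and the strand used in counting is not stated.

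Mmp9 is a gelatinase, an enzyme that digests type IV collagen of basement membranes and denatured collagen (chromosome 2, 164940780-164955850, plus strand). It was the 1 gene of the 10 called as lower in cystic kidneys: RC/- libraries read 1.07, 0.633, 1.11, 1.05 and 2.26 CPM and RC/+ libraries 6.25, 1.19 and 5.26 CPM. The groups overlapped, since RC/+ replicate 5, with 27 reads, lay within the RC/- range, while the other RC/+ libraries lay above it. The log2 fold change was -1.54 ± 0.38 (adjusted p = 0.00211), and between -2.27 without RC/+ replicate 5 and -1.11 without RC/+ replicate 4.

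In RC/- D18 Mmp9 read 2.63, 2.4, 4.24, 2.68 and 2.2 CPM, and replicate 20 was the highest. Only RC/- replicate 17 reached into that range, and the log2 fold change against RC/- was 1.23 ± 0.32 (adjusted p = 0.00362), or 1.10 without libraries 20 to 22 (adjusted p = 0.0683). In RC/- D53 it read 2.92, 2.12, 2.05, 1.97 and 1.77 CPM, 0.87 ± 0.32 on the log2 scale above RC/- (adjusted p = 0.0442), with RC/- replicate 17 again inside its range. This last call was lost when any of 8 single libraries was left out (RC/- replicates 13 to 16 or RC/- D53 replicates 23 to 26), with adjusted p up to 0.127.

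Mmp2, the other gelatinase (chromosome 8, 92827291-92853420, plus strand), is made mainly by fibroblasts and other stromal cells. Its levels were 163, 117, 134, 149 and 199.9 CPM in RC/- and 104, 80.2 and 110.2 CPM in RC/+. All RC/- libraries were above all RC/+ libraries, but the difference of 0.63 ± 0.29 on the log2 scale (95% interval 0.02 to 1.23) did not pass the adjustment (adjusted p = 0.0994), and it did when only these 2 groups were fitted (adjusted p = 0.012). The fit shares 1 spread over all groups, and Mmp2 varied within other groups, from 48.4 to 144 CPM in RC/+ D18. RC/- D18 libraries read 131, 128, 97.3, 83.6 and 42.1 CPM, so that replicates 18 and 19 lay within the RC/- range and replicates 20 to 22 below it. The log2 fold change in D18 against RC/- was -0.75 ± 0.25 (adjusted p = 0.0213) and -0.21 without libraries 20 to 22 (adjusted p = 0.603). It was also not called with edgeR (adjusted p = 0.0541), without RC/- replicate 17 (0.0638) or without RC/- D18 replicate 22 (0.0901). RC/- D53 (124 ± 20.4 CPM) differed from RC/- by -0.29 ± 0.25, which did not pass the test (95% interval -0.81 to 0.24).

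Mmp11 (chromosome 10, 75923222-75936496, minus strand), a stromelysin-type enzyme that is activated inside the cell by furin, averaged 40.7 ± 9.28 CPM in RC/- and 26.6 ± 3.76 CPM in RC/+. RC/- libraries read 34.9, 35.3, 38.6, 37.7 and 57.1 CPM against 30.1, 22.6 and 27 CPM, with no overlap and with replicate 17 far above the rest. The log2 fold change of 0.60 ± 0.17 passed the test (adjusted p = 0.0088), though not without RC/+ replicate 5 (adjusted p = 0.0677). In RC/- D18 it fell to 26.7 ± 5.87 CPM (-0.61 ± 0.15, adjusted p = 0.00219), with a difference of -0.34 without libraries 20 to 22 (adjusted p = 0.19). The difference in RC/- D53 was -0.37 ± 0.15 (adjusted p = 0.0673, not called). Of its exon bases, 5.58% are shared with Chchd10 on the opposite strand.

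The membrane-type enzymes Mmp14 and Mmp15 both rose in cystic kidneys. Mmp14 (chromosome 14, 54431612-54445364, plus strand), which cuts fibrillar collagen and activates the Mmp2 proenzyme, read 155, 139, 168, 191 and 230.0 CPM in RC/- and 79.6, 66.1 and 69.8 CPM in RC/+. The lowest RC/- library was well above the highest RC/+ library, and the log2 fold change was 1.28 ± 0.15, or 2.43-fold (adjusted p = 3.1e-07). RC/- D18 libraries read 81.3, 84, 75.8, 68.6 and 49.5 CPM and RC/- D53 libraries 86, 88.7, 98.8, 84.4 and 93.4 CPM. Both sets lay wholly below RC/-. RC/- D53 also lay above RC/- D18, but only narrowly (lowest library 84.35 CPM against highest 84.05 CPM), and that difference was not called (limma adjusted p = 0.263). Against RC/- the log2 fold changes were -1.30 ± 0.13 in D18 (adjusted p = 2.59e-08) and -0.95 ± 0.13 in D53 (adjusted p = 5.17e-06), the latter -0.57 with the covariate for libraries 20 to 27 (adjusted p = 0.101).

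Mmp15 (chromosome 8, 95352268-95375080, plus strand), a close relative that is expressed in epithelia, read 22.8, 25.7, 30.6, 27.3 and 38.8 CPM in RC/- and 17.7, 16.6 and 16.9 CPM in RC/+, with no overlap (log2 fold change 0.74 ± 0.18, adjusted p = 0.00173). RC/- D18 averaged 18.9 ± 2.6 CPM and RC/- D53 19.1 ± 4.18 CPM. The log2 fold changes against RC/- were -0.61 ± 0.15 (adjusted p = 0.00249) and -0.60 ± 0.15 (adjusted p = 0.00384). RC/- D18 did not overlap RC/-, and RC/- D53 did. With the covariate for libraries 20 to 27 the D53 difference was -0.55 and was not called (adjusted p = 0.249).

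**Figure D2:**
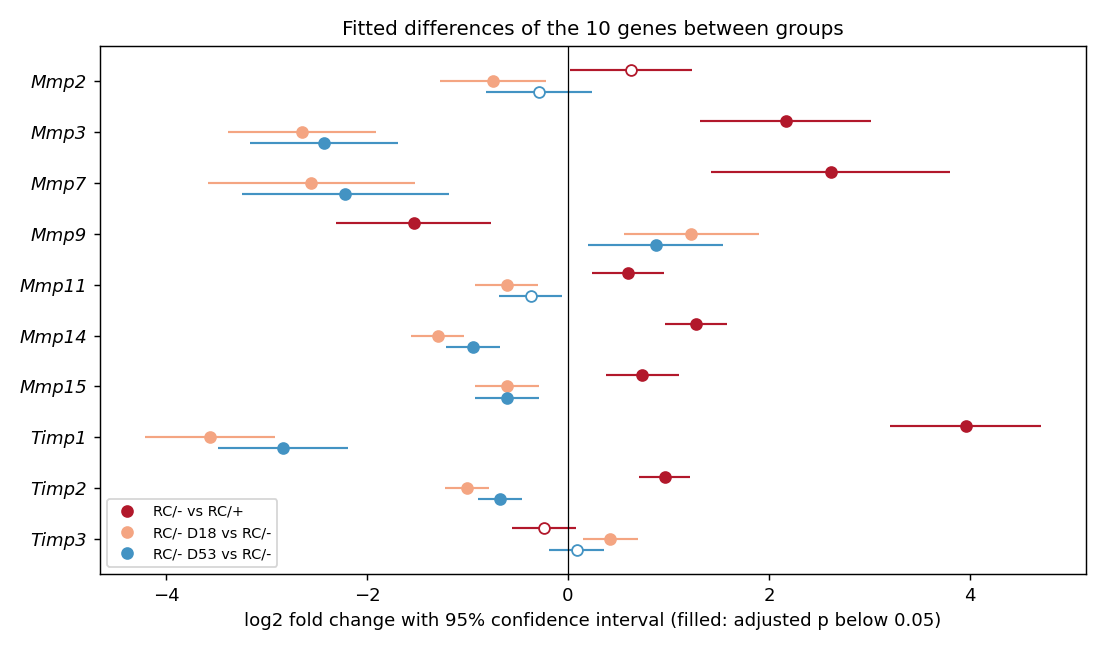
Fitted log2 fold changes of the 10 genes (horizontal axis) with 95% confidence intervals, for RC/- against RC/+ and for each edited cystic group against RC/-; filled points have an adjusted p below 0.05. The RC/- against RC/+ values run from -1.54 for Mmp9 to 3.96 for Timp1, and each filled one has points on the other side of 0 for both edited groups, of which Mmp11 in D53 is open.

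Timp1, an inhibitor that acts on most secreted metalloproteinases and poorly on the membrane-type ones, showed the largest difference of the 10 genes. It lies on the X chromosome at 20870166-20874735, inside Syn1 on the opposite strand, with which it shares 0 exon bases. RC/- kidneys read 10.9, 14, 21.7, 30.1 and 22.7 CPM and RC/+ kidneys 1.06, 0.929 and 1.45 CPM. Every RC/- library was above every library of all other groups, and replicates 13 and 14 were the lowest of the 5. The log2 fold change was 3.96 ± 0.36 (adjusted p = 8.36e-09), and between 3.78 and 4.15 when single libraries were left out.

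RC/- D18 kidneys read 1.62, 2.92, 1.73, 1.23 and 0.746 CPM of Timp1 and RC/- D53 kidneys 2.04, 2.24, 2.64, 2.04 and 4.37 CPM. Neither overlapped RC/-, and the highest library of each, replicates 19 and 27, was still under the lowest RC/- library. The log2 fold changes against RC/- were -3.56 ± 0.31 in D18 (adjusted p = 4.6e-09) and -2.83 ± 0.31 in D53 (adjusted p = 3.69e-07). Without libraries 20 to 22 the D18 value was -3.05 (adjusted p = 5.25e-06), and with the covariate the D53 value was -1.98 (adjusted p = 0.0193).

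Timp2 (chromosome 11, 118301069-118355740, minus strand), which also bridges Mmp14 and the Mmp2 proenzyme and whose 3′ UTR holds the seed match shown above, read 307, 294, 286, 350.5 and 342 CPM in RC/- and 169, 141 and 176 CPM in RC/+. The groups were far apart relative to their spread, at 0.96 ± 0.12 on the log2 scale or 1.95-fold (adjusted p = 9.93e-07). RC/- D18 kidneys averaged 158 ± 24.9 CPM and RC/- D53 kidneys 198 ± 21.7 CPM, with every library of both below RC/-. The differences from RC/- were -1.01 ± 0.11 in D18 (adjusted p = 5.8e-08) and -0.67 ± 0.11 in D53 (adjusted p = 2.85e-05), and the D53 value was -0.47 with the covariate for libraries 20 to 27 (adjusted p = 0.12).

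Timp3 (chromosome 10, 86300372-86349506, plus strand), which binds to the matrix and also inhibits Adam and Adamts proteases, differed in the other direction. RC/- libraries read 320.3, 307, 288, 267 and 263 CPM and RC/+ libraries 322, 334 and 365 CPM. The libraries did not overlap, but only narrowly, and the log2 fold change of -0.24 ± 0.15 did not pass the test (adjusted p = 0.24, and 0.045 when only these 2 groups were fitted). RC/- D18 libraries read 343, 288, 458, 389 and 484 CPM, so that replicate 19 lay within the RC/- range and the other 4 above it. The difference from RC/- was 0.42 ± 0.13 (adjusted p = 0.0132), and 0.12 without libraries 20 to 22 (adjusted p = 0.6). RC/- D53 averaged 312 ± 63.2 CPM, a difference of 0.09 ± 0.13 (95% interval -0.19 to 0.36). Timp3 shares 21.3% of its exon bases with Syn3 on the opposite strand.

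In noncystic kidneys none of the 10 genes passed the test between an edited line and RC/+. In RC/+ D18 against RC/+, 0 of 10 were called by limma (0 at an unadjusted p under 0.05), beside 0.00443% of all genes, and the log2 fold changes ran from -0.68 for Timp1 to 0.13 for Mmp7. In RC/+ D53 against RC/+, 0 of 10 were called (again 0 at an unadjusted p under 0.05), beside 0.0% of all genes, with values from -0.78 for Mmp3 to 0.83 for Mmp9. edgeR and DESeq2 also called 0 of 10 in both. With 3 mice a group the intervals were wide, -0.03 to 1.70 for Mmp9 in D53 and -1.52 to 0.15 for Timp1 in D18.

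Within the D18 line, RC/- D18 against RC/+ D18, limma called 0 of 10 genes, as edgeR and DESeq2 did, beside 0.266% of all genes. The libraries of the 2 groups overlapped for all 10 genes, whereas 5.76% of tested genes did not overlap. For Timp1 the overlap rested on RC/- D18 replicate 22 alone (0.746 CPM). Timp1 was the 1 gene at an unadjusted p under 0.05, with a log2 fold change of 1.08 ± 0.36 (95% interval 0.33 to 1.82, adjusted p = 0.293), from 0.566, 0.489 and 1.07 CPM in RC/+ D18. The others ran from -0.39 for Mmp9 to 0.34 for Mmp15, with a median over the 10 genes of 0.02 beside 0.04 for all genes. Without libraries 20 to 22 limma again called 0 of 10, beside 0.00886% of all genes. Timp1 then differed by 1.59 (adjusted p = 0.155), Mmp9 by -0.52 and Mmp15 by 0.37.

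Within the D53 line, 2 of 10 genes were called, Timp1 as higher and Mmp9 as lower in RC/- D53, beside 2.6% of all genes (2.45% higher and 0.146% lower). Timp1 read 0.976, 0.671 and 1.28 CPM in RC/+ D53, all below RC/- D53, and the log2 fold change was 1.36 ± 0.36 (adjusted p = 0.0407). Mmp9 read 6.94, 5.92 and 5.69 CPM in RC/+ D53, all above RC/- D53, and differed by -1.50 ± 0.38 on the log2 scale (adjusted p = 0.0277). Mmp14 (0.17 ± 0.15) and Timp2 (0.29 ± 0.12) did not overlap between the groups either but were not called (adjusted p = 0.692 and 0.286). No overlap was seen for these 4 of the 10 genes and for 11.6% of all genes, and the remaining 6 genes lay between -0.19 for Timp3 and 0.53 for Mmp3. The differences kept their size when single libraries were left out (-1.60 to -1.41 for Mmp9 and 1.14 to 1.56 for Timp1), but the adjusted p did not stay under 0.05: leaving out RC/+ D53 replicate 10, 11 or 12 or RC/- D53 replicate 24, 25 or 27 left 0 genes, and leaving out RC/- D53 replicate 26 left Timp1 only. edgeR kept Mmp9 alone (Timp1 adjusted p = 0.0621), and the covariate for libraries 20 to 27 kept Timp1 alone, with values of 2.21 for Timp1 (adjusted p = 0.0451) and -1.71 for Mmp9 (adjusted p = 0.163). Calls over all genes fell too, from 587 to between 313 and 579 with a single library left out, 460 with edgeR and 287 (1.27%) with the covariate. In the same comparison 8 of 10 macrophage markers were called as higher (a sum of 462 ± 56.8 CPM in RC/- D53 and 304 ± 25.6 CPM in RC/+ D53), as were 3 of 7 tubule injury markers (541 ± 96.1 and 328 ± 25.4 CPM). All 7 skeletal muscle genes and 1 of 7 neutrophil markers were also higher, and 0 of 8 fibroblast and 0 of 8 kidney markers were called. Every RC/- D53 library and no RC/+ D53 library held the high muscle counts, so these and the genotype cannot be told apart here.

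Whether the cystic difference was unequal between an edited line and the unedited mice was tested as an interaction, which also uses the RC/- and RC/+ libraries. Without libraries 20 to 22 the D18 interaction was called for Mmp3, Mmp14, Timp1 and Timp2, beside 9.94% of all genes. With all libraries the cystic difference in D18 was smaller for 5 of the 10 genes, where 17.1% of all genes were called. The log2 interaction was -2.88 ± 0.51 for Timp1 (SE; adjusted p = 0.000388), -2.68 ± 0.81 for Mmp7 (adjusted p = 0.0242), -2.34 ± 0.58 for Mmp3 (adjusted p = 0.00676), -1.30 ± 0.21 for Mmp14 (adjusted p = 0.000157) and -0.88 ± 0.17 for Timp2 (adjusted p = 0.000894). The Mmp7 value stayed large but was not called with edgeR (-3.95, adjusted p = 0.106), when only the 4 groups were fitted (-2.66, adjusted p = 0.0601), without libraries 20 to 22 (-2.59, adjusted p = 0.0869), with the covariate (-2.60, adjusted p = 0.0821), or without RC/+ replicate 6 or RC/+ D18 replicate 7 or 9 (-2.34 to -2.56, adjusted p from 0.06 to 0.078).

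In D53 the interaction was called for 3 of the 10 genes, beside 11.3% of all genes. It was -2.60 ± 0.51 for Timp1 (adjusted p = 0.00191), -1.10 ± 0.21 for Mmp14 (adjusted p = 0.00157) and -0.68 ± 0.17 for Timp2 (adjusted p = 0.0123). All 3 calls were lost with the covariate for libraries 20 to 27, which lowered the share of all genes called to 1.79%. Without RC/+ replicate 5 Timp2 was not called (adjusted p = 0.0533). Mmp9 had an interaction of 0.04 ± 0.53 in D53 (95% interval -1.05 to 1.14): its cystic difference was -1.54 in the unedited mice and -1.50 in the D53 line. In D18 the Mmp9 interaction was 1.15 ± 0.53 (adjusted p = 0.148), past the threshold with edgeR (0.0407) and DESeq2 (0.014) and without RC/+ replicate 5 (0.00339).

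The edited cystic kidneys of the 2 founders were also compared directly. In RC/- D53 against RC/- D18, 0 of the 10 genes were called by limma, beside 0.266% of all genes, and 4 had an unadjusted p under 0.05. Those were Timp2 (0.33 ± 0.11), Mmp14 (0.35 ± 0.13), Timp1 (0.73 ± 0.31) and Timp3 (-0.33 ± 0.13), with adjusted p between 0.212 and 0.317. The values depended on how libraries 20 to 27 were treated: without libraries 20 to 22 they were 0.21, 0.12, 0.22 and -0.04, a comparison of D18 libraries with few muscle counts and D53 libraries that all have them, and with the covariate they were 0.41, 0.50, 1.07 and -0.53, none of them called (adjusted p from 0.0546 to 0.106).

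Ordered by group mean, RC/- was the highest of the 6 groups for 8 genes and the lowest for Mmp9 and Timp3. For Timp1, Timp2, Mmp7 and Mmp14 the next group below RC/- was RC/- D53, and for these 4 genes RC/- did not overlap it, for Mmp7 only through library totals. For Mmp3 the next group was RC/+, which RC/- did not overlap either. Mmp14 also did not overlap between RC/- D53 and the group below it, RC/+ D53. All other neighbours in the orders of the 10 genes overlapped, so that for Mmp2, Mmp9, Mmp11, Mmp15 and Timp3 no group was set off from its neighbours by its libraries.

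Levels between genes were compared per exon length, as CPM per kilobase of exon. Averaged over the 24 libraries, Timp2 (51.2), Timp3 (41.6) and Mmp2 (34.5) were the most abundant, Mmp14 (16.5) and Mmp11 (11.1) came next, and Mmp15 (3.77), Mmp9 (0.863), Mmp3 (0.286) and Mmp7 (0.252) were low. Timp1 had the widest range, from 0.551 to 33.9. In RC/- kidneys Timp1 averaged 22.4 ± 8.59 per exon length, above Mmp11 (14.7 ± 3.34) there, while in RC/+ kidneys it averaged 1.29 ± 0.302, below Mmp11 (9.58 ± 1.35).

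**Figure D3:**
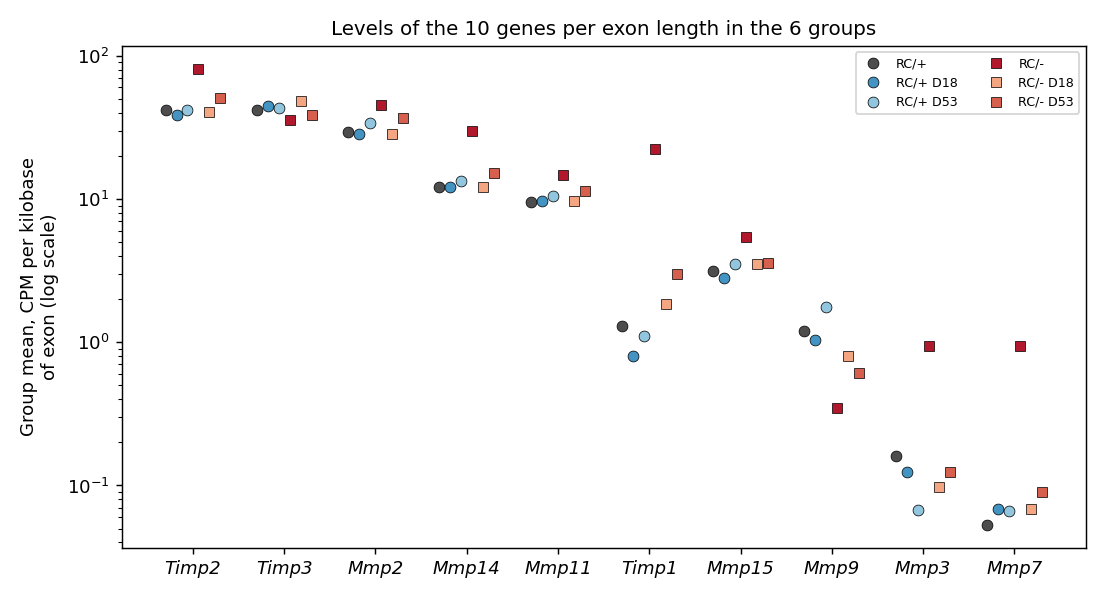
Group means of the 10 genes in CPM per kilobase of exon (vertical axis, log scale), ordered by the mean over all 24 libraries, with circles for control and squares for cystic groups. Timp1 moves from 1.29 in RC/+ to 22.4 in RC/-, and Mmp3 and Mmp7 stay under 1 in every group.

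Summed over the genes, the 7 metalloproteinases came to 403 ± 79.3 CPM in RC/- and 218 ± 27.5 CPM in RC/+, and the 3 inhibitors to 624.9 ± 20.3 and 503 ± 34.6 CPM. Inhibitor counts per metalloproteinase count were therefore lower in RC/-, at 1.59 ± 0.270 (1.18 to 1.93), than in RC/+, at 2.32 ± 0.246 (2.06 to 2.55), without overlap. The other control groups did overlap RC/-, with 1.81 to 3.37 in RC/+ D18 and 1.80 to 2.33 in RC/+ D53. RC/- D18 stood at 2.79 ± 1.19 and RC/- D53 at 1.94 ± 0.353, and both overlapped RC/-. The RC/- D18 mean rested on libraries 20 to 22 (2.86, 2.68 and 4.74), and replicates 18 and 19 without them had 1.95 and 1.73, a mean of 1.84. The sums are carried by Mmp2, Mmp14, Timp2 and Timp3, and the ratio was not tested. Timp1 made up 3.18% ± 1.18 of the inhibitor counts in RC/- and 0.226% ± 0.0367 in RC/+, with 0.313% ± 0.190 for RC/- D18 and 0.541% ± 0.276 for RC/- D53.

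**Figure D4:**
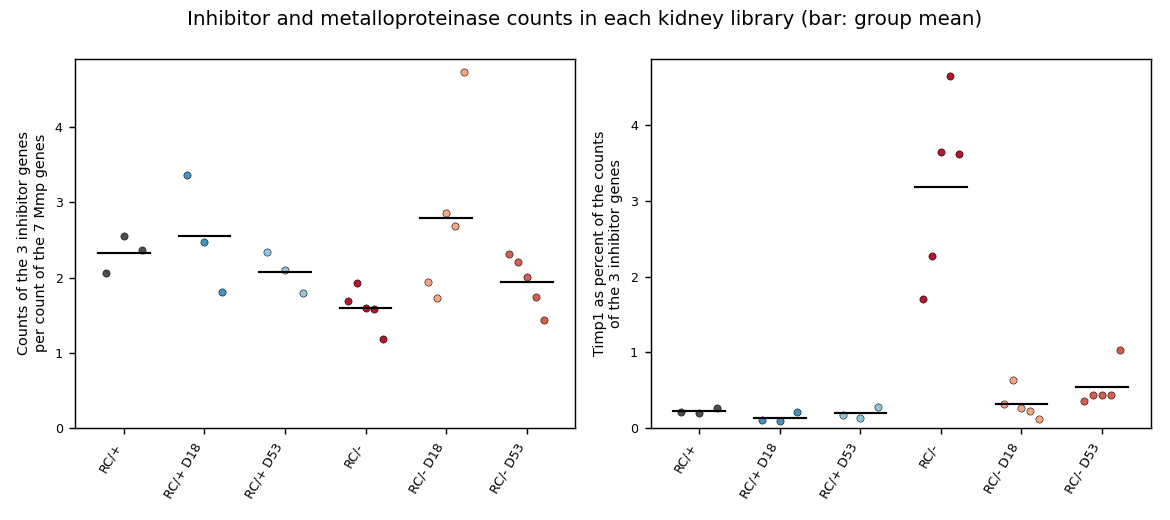
Left, counts of the 3 inhibitor genes per count of the 7 metalloproteinase genes, and right, Timp1 as percent of the inhibitor counts (vertical axes from 0), in each library (points) by group, with the group mean as a bar. The ratio is 1.18 to 1.93 in RC/- and 2.06 to 2.55 in RC/+, and the Timp1 share is 1.70 to 4.65% in RC/- and at most 1.03% elsewhere.

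Related genes were taken from 4 lists. Beside their counts stand the shares of all genes called: 37.6% in RC/- against RC/+, 41.2% in RC/- D18 against RC/- and 30.2% in RC/- D53 against RC/-. The D18 share was 27.1% without libraries 20 to 22, and the D53 share was 7.96% with the covariate for libraries 20 to 27. Within the lines the shares were 0.266% in D18 and 2.6% in D53. Of 18 other Mmp family and inhibitor genes, 13 were tested (Mmp1a, Mmp1b, Mmp10, Mmp20 and Mmp21 were under the limit), and 5 rose and 2 fell in RC/- against RC/+, with a median log2 fold change of -0.07. Mmp12, a macrophage elastase, rose from 0.748 ± 0.311 CPM to 3.55 ± 2.34 CPM (1.93, adjusted p = 0.000482), and Mmp19, a secreted enzyme of basement membrane turnover, rose by 1.55 on the log2 scale. Mmp8, a collagenase of neutrophils, rose by 1.97 at 0.302 ± 0.141 CPM in RC/-, and the membrane-type Mmp16 fell from 2.58 ± 0.172 CPM to 0.948 ± 0.462 CPM (-1.48, adjusted p = 0.00124). Against RC/-, 5 were lower and 2 higher in RC/- D18, and 4 lower and 2 higher in RC/- D53 (3 called in all with the covariate for libraries 20 to 27). Within the D18 line 0 of the 13 were called by limma, edgeR or DESeq2 (1 at an unadjusted p under 0.05), and within the D53 line also 0 (2 at an unadjusted p under 0.05).

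The plasminogen system, whose protease plasmin activates several proenzymes, had 15 of 16 genes tested (Serpinb2 was under the limit), and 6 rose and 4 fell in RC/-, with a median of -0.06. Serpinf2, the plasmin inhibitor, fell (-1.43 on the log2 scale, adjusted p = 6.6e-05), as did the proprotein convertase Pcsk6 (-0.93) and the membrane protease Hpn (-0.91). St14, the epithelial membrane protease matriptase, rose by 0.81 and was the 1 gene of this list called within the D53 line (0.37, adjusted p = 0.0193, not called with TMM factors, edgeR, DESeq2, only these groups or the covariate, or without RC/+ D53 replicate 12 or RC/- D53 replicate 24). Against RC/-, 6 were lower and 4 higher in each edited group, of which the covariate for libraries 20 to 27 left 4 called in all in D53.

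All 18 Adam and Adamts genes on the list, the related proteases that shed surface proteins and cut proteoglycans and procollagen, were tested, and 11 rose and 2 fell in RC/- (median 0.34). Adam8 rose by 2.41, Adamts2, which trims procollagen, by 1.68 (from 31.3 ± 3.81 CPM to 100.3 ± 12.9 CPM), Adamts16 by 1.53 and Adamts1 by 1.30. Against RC/-, 9 were lower and 2 higher in D18, and 9 lower and 1 higher in D53 (4 called in all with the covariate). Adamts16 was the 1 gene called within the D53 line (0.87, adjusted p = 0.0321), a call lost without RC/+ D53 replicate 10, 11 or 12 or RC/- D53 replicate 24 or 25 (adjusted p up to 0.129).

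Of 22 substrates of these proteases, matrix and cell surface genes that were all tested, 17 rose and 1 fell in RC/-, with a median of 0.93. Col1a1 rose from 181 ± 42.6 CPM to 734 ± 101 CPM (2.04), Eln, the elastin gene, by 1.94 and Spp1, osteopontin, by 1.54. In RC/- D18, 16 were lower and 3 higher than in RC/- (12 called in all without libraries 20 to 22), and in RC/- D53, 14 were lower and 1 higher (3 called in all with the covariate for libraries 20 to 27). Within the D53 line 4 were called as higher, among them Lama5 (0.54), Cdh1 (0.52) and Hbegf (0.46). Hbegf was not called with the covariate (0.41, adjusted p = 0.234) or without RC/+ D53 replicate 11 or 12. Lama5 was not called without RC/+ D53 replicate 10, 11 or 12 or RC/- D53 replicate 24, 25 or 26. Within the D18 line 0 of the 22 were called by limma (3 at an unadjusted p under 0.05) and by edgeR, and 1 by DESeq2. The other lists also had 0 calls there by limma, edgeR or DESeq2, with 3 of 15 plasminogen genes and 2 of 18 Adam and Adamts genes at an unadjusted p under 0.05. Col1a1, Col1a2, Col3a1 and Dcn also stand on the fibroblast marker list below.

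**Figure D5:**
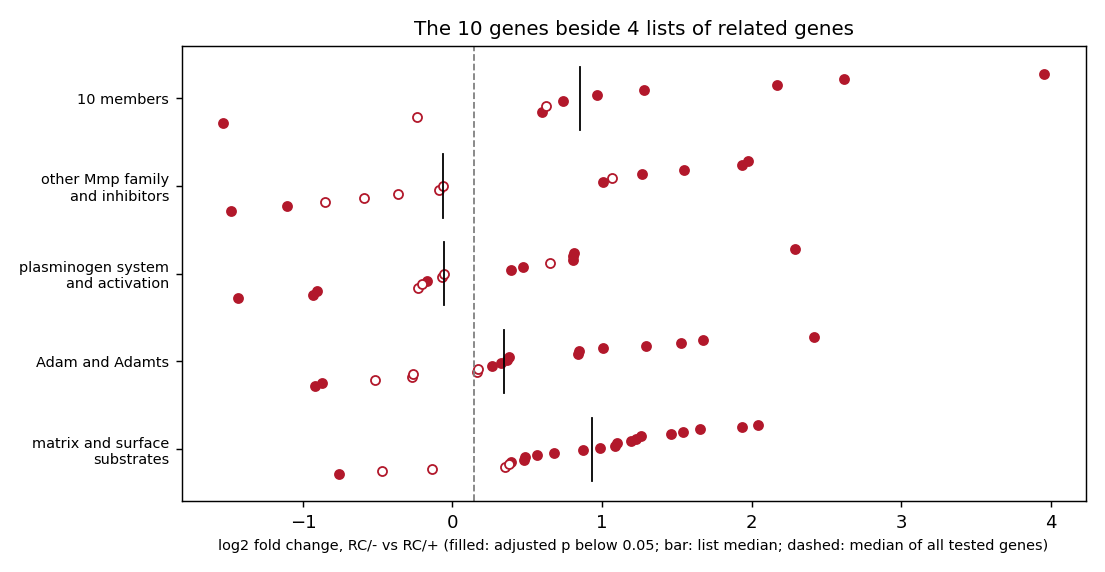
Log2 fold changes in RC/- against RC/+ (horizontal axis) of the 10 genes and of the tested genes of 4 lists (rows); filled points have an adjusted p below 0.05, bars are list medians and the dashed line is the median of all tested genes, 0.14. Medians are 0.85 for the 10 genes, -0.07, -0.06 and 0.34 for the next lists and 0.93 for the substrates.

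Markers of other cell types differed between the same groups. All 10 macrophage markers rose in RC/-, and their sum was 628 to 1132 CPM there, 292 to 312 CPM in RC/+, 362 to 396 CPM in the D18 cystic group and from 399.9 to 547 CPM in RC/- D53. Of 8 fibroblast markers 5 rose, with a sum of 3127 to 5069 CPM in RC/-, 1502 to 2106 CPM in RC/+, 996 to 2673 CPM in the D18 cystic group and 1771 to 2826 CPM in RC/- D53. Neutrophil markers, 7 of 10 tested, stayed low (0.971 to 7.17 CPM summed in RC/-, 2.29 to 4.37 CPM in RC/+). In that comparison 0 were called by limma, edgeR or DESeq2 (0 at an unadjusted p under 0.05). In each edited cystic group 2 of the 7 were called as higher than in RC/-. In RC/- D18 the neutrophil sum was 2.58 and 2.54 CPM in replicates 18 and 19 and 7.57, 4.59 and 7.07 CPM in libraries 20 to 22. Within the D53 line it was 5.57 to 9.42 CPM in RC/- D53 and 1.57 to 4.32 CPM in RC/+ D53 (1 of 7 called, as higher). Every RC/- D53 library held the high muscle counts. Of 7 tubule injury markers 6 rose (1292 to 1840 CPM summed in RC/-, 314 to 373 CPM in RC/+). Of 8 kidney markers 7 fell and 1 rose in RC/- (3487 to 7054 CPM, against 9453 to 10666 CPM). No marker on these lists was at 0 in all libraries, and their part in the results was not tested.

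Over the 24 libraries, the gene whose log2 CPM followed each of the 10 most closely was found among the 15115 genes whose log2 CPM averaged 0 or more. The libraries share the group differences, so the correlation of deviations from the 6 group means is given beside the plain one, as a description. Timp1 was most like Lcn2, a tubule injury gene (Pearson r = 0.98, deviations 0.82), Timp2 like Thy1 (0.98, 0.88), Mmp14 like Gpr153 (0.99, 0.90) and Mmp2 like Cdh11, a fibroblast cadherin (0.96, 0.94). Mmp15 was most like Sox4 (0.92, 0.85), Mmp11 like Dennd2a (0.90, 0.82), Mmp7 like Plscr1 (0.92, 0.80) and Timp3 like Zdhhc5 (0.84, 0.84). For Mmp3 (Il4ra, 0.92) and Mmp9 (Fut8, 0.87) the deviations were less alike, at 0.53 and 0.57. Among the 10 genes themselves, Mmp2, Mmp14 and Timp2 deviated together within groups (0.85 for Mmp2 with Mmp14, 0.85 for Mmp2 with Timp2 and 0.82 for Mmp14 with Timp2). This was not limited to these partners of proenzyme activation. Mmp11 also deviated with Mmp14 (0.76), Mmp2 (0.73) and Timp2 (0.64), and Timp1 did so too (0.67, 0.65 and 0.66). Mmp3, Mmp7, Mmp9 and Mmp15 were less alike to the partners, at 0.50 or below. Timp3 deviated against Timp1 (-0.67). The group that mixes libraries with high and low muscle counts was not split for these correlations.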

How the data were processed

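Whole kidneys of 24 mice were profiled by RNA-seq. The authors trimmed paired reads with Trim Galore 0.6.3, aligned them to GRCm38 with STAR 2.5.3a and counted reads per Ensembl gene with STAR. The deposited values are raw read counts, without normalization, for 54532 genes. Which strand column was kept is not given in the sources used here. All columns were used (0 unused). Samples were grouped by the genotype in the deposited labels. Libraries within groups were checked for copies (39 pairs, chi-square per degree of freedom 8.45 to 48.2), and all were kept.

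The cpm function of edgeR 4.0.16 turned counts into log2 CPM relative to library totals, adding a prior count of 2. The 22570 genes whose log2 CPM averaged -3 or more were tested with limma-trend (limma 3.58.1, R 4.3.3), with 6 group means fitted to all 24 libraries, two-sided, and Benjamini-Hochberg adjustment at 0.05 over all tested genes. limma-trend and the limit of -3 follow the study's methods, and the other settings were chosen here. edgeR's quasi-likelihood test and DESeq2 1.42.0 were alternatives. The scripts were tested on simulated data. Other alternatives were TMM factors, no filter on low counts, only the groups compared, libraries 20 to 27 as a covariate, and single libraries left out. Separate mice stand behind each library, so p-values measure the spread between mice.

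The 10 genes, the lists and the tests were chosen with earlier results of these data known. All 10 genes were described in every comparison, by value or within a range. From each list the text names up to 4 genes with the largest change among those called in RC/- against RC/+, and any called within an edited line, and for each of the 10 genes the most similar gene over the libraries. Of the genes this rule selects, 2 are not reported here. Lengths and positions come from GENCODE M21 on GRCm38, in which 54409 of the 54532 identifiers were found, and 3′ UTRs were taken from its coding transcripts. Counting error at low counts limits the precision for Mmp3 and Mmp7.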

Additional observations from a re-analysis of the deposited data

Results flagged for a closer look

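In 3 of the 30 sets of 5 libraries examined, 1 library stood far from the others by Dixon's criterion, which chance alone meets in about 1 of 20 groups. These were Mmp9 in RC/- D18 replicate 20 (4.24 CPM), Mmp11 in RC/- replicate 17 (57.1 CPM) and Timp1 in RC/- D53 replicate 27 (4.37 CPM). RC/- replicate 17 was also the highest RC/- library for Mmp2, Mmp7, Mmp9, Mmp14 and Mmp15.

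The cystic difference differed between an edited line and the unedited mice for the following genes, by the interaction term of the limma fit (adjusted p below 0.05), on the log2 scale. In D18 these were Timp1 (-2.88), Mmp7 (-2.68), Mmp3 (-2.34), Mmp14 (-1.30) and Timp2 (-0.88). In D53 they were Timp1 (-2.60), Mmp14 (-1.10) and Timp2 (-0.68). Both sets share the RC/- and RC/+ libraries. Of all genes 17.1% were called in the D18 interaction and 11.3% in that of D53. All D53 calls named here were lost with the covariate for libraries 20 to 27, and the D18 call of Mmp7 with that covariate and with edgeR. With the covariate 10.4% of all genes were called in the D18 interaction and 1.79% in that of D53.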

How the results depend on the processing

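No paired analysis was possible because the replicate numbers, 4 to 27, differ between all groups. TMM factors moved the median over all genes in RC/- against RC/+ from 0.14 to 0.01 (log2) and changed no direction or call of the 10 genes given above. Counts of called genes among the 10 moved by over 1.5 times as follows, from 10 to 6 in RC/- D18 against RC/- (covariate for libraries 20 to 27, and equally without libraries 20 to 22), from 7 to 2 in RC/- D53 against RC/- (covariate), and from 3 to 0 in the D53 interaction (covariate), with a range of 2 to 6 when single libraries were left out (6 without RC/- replicate 13, 5 without RC/- replicate 14, 2 without RC/+ replicate 5). Over all genes the covariate lowered the share called from 41.2% to 27.5% in RC/- D18 against RC/-. It did so from 30.2% to 7.96% in RC/- D53 against RC/- and from 11.3% to 1.79% in the D53 interaction. Within the D53 line the 2 called genes became 1 with edgeR, 0 without the filter on low counts (in which more genes are tested), 1 with the covariate and 0 to 2 when single libraries were left out. The share of all genes called there fell from 2.6% to 1.27% with the covariate. With the covariate, list counts in RC/- D53 against RC/- fell from 6 to 3 (other Mmp genes), 10 to 4 (plasminogen), 10 to 4 (Adam and Adamts) and 15 to 3 (substrates), and in RC/- D18 the substrates fell from 19 to 12. Other causes were not tested.

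Of the values that changed sign, none was called. With the covariate, RC/- D53 against RC/- gave 0.60 for Mmp2, 0.082 for Mmp11 and -0.40 for Timp3, and the D53 interaction of Mmp9 was -0.17. Leaving out single libraries gave -0.39 to 0.77 for that interaction and -0.22 to 0.54 for Mmp7 in RC/+ D18 against RC/+. Depth limits Mmp3 and Mmp7, which had at most 10 and 4 reads per library outside RC/-.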
